A study of Homo sapiens with 2 samples.

Results

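The genes described here encode the machinery that copies DNA in S phase. They are 59 human genes, taken by symbol from the array's annotation, and all 59 had at least 1 feature (a spot of probe on the array) with a ratio on both arrays, of 12842 genes tested in all. They were sorted by role into 15 genes of origin licensing, 39 genes of the fork (13 of origin firing, the helicase and fork protection, and 26 of DNA synthesis) and 5 genes of nucleotide supply. Of their 119 features, 117 had a ratio on both arrays, and the other 2, one each of POLE and WDHD1, were listed at exactly 0 on both.

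RNA came from COLO320, an established human cell line of a colorectal cancer that carries neuroendocrine features, in which the question was what the loss of CDX2, a homeobox transcription factor of the intestine, does to transcripts. Cells received 100 nM of 1 of 2 siRNAs against CDX2, called siRNA 6 and siRNA 8, or a non-targeting control siRNA; medium was changed the next morning and RNA was taken 24 h after that. Each of the 2 arrays held RNA of 1 CDX2 siRNA in Cy5 and time-matched control RNA in Cy3, so every value is a ratio of CDX2 siRNA over control (n = 2 arrays, with no dye swap and no separate measure of the control's spread). CDX2 itself stood at 37.0% of control with siRNA 6 and 37.7% with siRNA 8 (limma, adjusted p = 0.00164), and nothing in the labels says that the cultures were independent, so a p-value here covers the spread from array to array and no more.

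Replication starts in G1, when the origin recognition complex, CDC6 and CDT1 load the MCM2-7 helicase onto DNA, a step called licensing, which geminin blocks afterwards by binding CDT1. In S phase the kinase CDC7-DBF4 fires the loaded origins, CDC45 and GINS turn MCM2-7 into an active helicase, and polymerases alpha, delta and epsilon copy the strands with the sliding clamp PCNA and its loader RFC. Many of these genes are transcribed at the G1/S boundary under E2F factors, and in the gut their expression marks the dividing cells of the crypt.

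The median log2 ratio of the replication genes was -0.23, or 85.4% of control, against -0.13 for all genes tested. The median was -0.24 on the siRNA 6 array and -0.20 on the siRNA 8 array. Relative to each array's median gene the replication genes had a median log2 ratio of -0.10. The middle 50% of replication genes lay between -0.41 and -0.05, a width of 0.36, where the same share of all genes spanned 0.62. Within 0.5 of 0 (log2) were 49 of the 59, or 83.1%, against 64.2% of all genes. In the plot of percentiles the curve of the replication genes is therefore the steeper one and ends at 0.31, at ORC3.

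**Figure D1:**
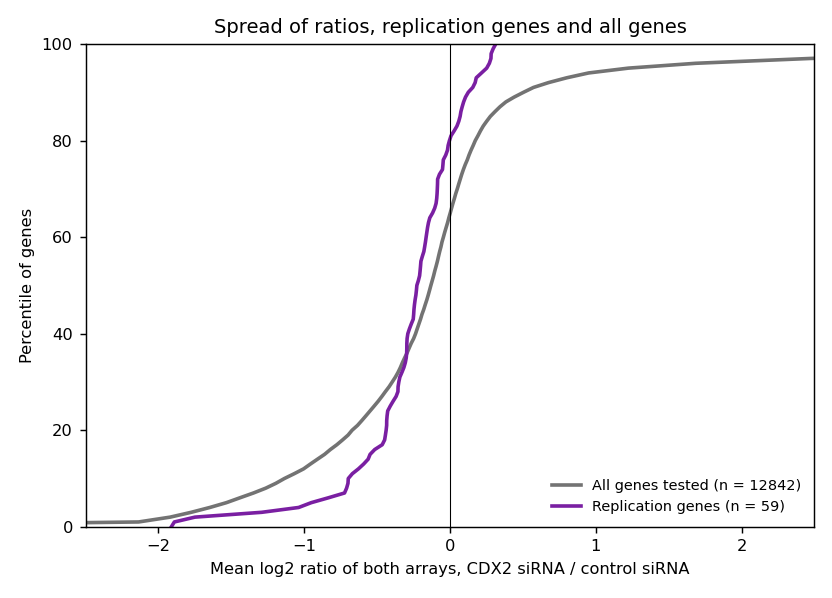
Mean log2 ratio of both arrays (x axis) at each percentile of genes (y axis), for all 12842 genes tested and for the 59 replication genes. The replication genes run from -1.91 to 0.31, and the part of the grey curve above 0.31 has no replication gene; values of all genes beyond the x axis are not drawn.

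In limma's fit to all genes, 16 of the 59 (27.1%) fell at an adjusted p of 0.05, where 28.6% of all genes were called lower and 40.7% in either direction. No replication gene rose by the same test, where 12.1% of all genes were called higher; ORC1, ORC3 and TYMS were higher at an unadjusted p under 0.05, or 3 of 59, against 15.1% of all genes higher and 35.8% lower by that unadjusted test. When features listed at exactly 0 stayed in the fit, limma called 0 of the 59 and 0 of 18334 genes. In that fit 26 of the 59 were lower at an unadjusted p, against 18.5% of all genes. The 18334 include 5002 genes at 0 on both arrays, which cannot be lower, so that share is not like for like. With the zeros left out, 26 of the 59 were also lower at an unadjusted p, against 35.8% of all genes. The 16 were MCM3, MCM5 and MCM7 among licensing genes, MCM10, CDC45, GINS1, GINS4 and TIMELESS among firing and helicase genes, POLA2, PRIM2, POLD3, POLE, RFC3, FEN1 and DNA2 among synthesis genes, and TK1 in nucleotide supply. Their adjusted p ran from 0.00155 to 0.0440. With each array centred on its median gene, 9 replication genes were lower (22.7% of all genes were called lower in that setting) and ORC1, ORC3 and TYMS were higher (16.5% of all genes). The 9 were GINS1, GINS4, TIMELESS, PRIM2, POLD3, POLE, RFC3, DNA2 and TK1, and the other 7 had centred adjusted p values in limma from 0.0501 (MCM7) to 0.118 (MCM5). The direction of each of the 16 was the same with and without centring.

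By fold, 6 replication genes, POLE, POLD3, GINS4, RFC3, DNA2 and GINS1, were at least 1.5-fold lower on both arrays, or 10.2% of the 59 against 18.4% of all genes. In the other direction 0 of the 59 reached 1.5-fold on both arrays, against 7.8% of all genes. The ratio was below 0 on both arrays for 43 genes (72.9%, against 56.6% of all genes), above 0 on both for 11 and of opposite sign for TIPIN, PRIM1, POLD4, RPA2 and TOP2A. The 2 arrays lay close together for most members, with a median gap of 0.091 (log2), against 0.15 for all genes. Only 6 members had a gap above 0.3, and the widest, 0.89, belonged to CLSPN.

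**Figure D2:**
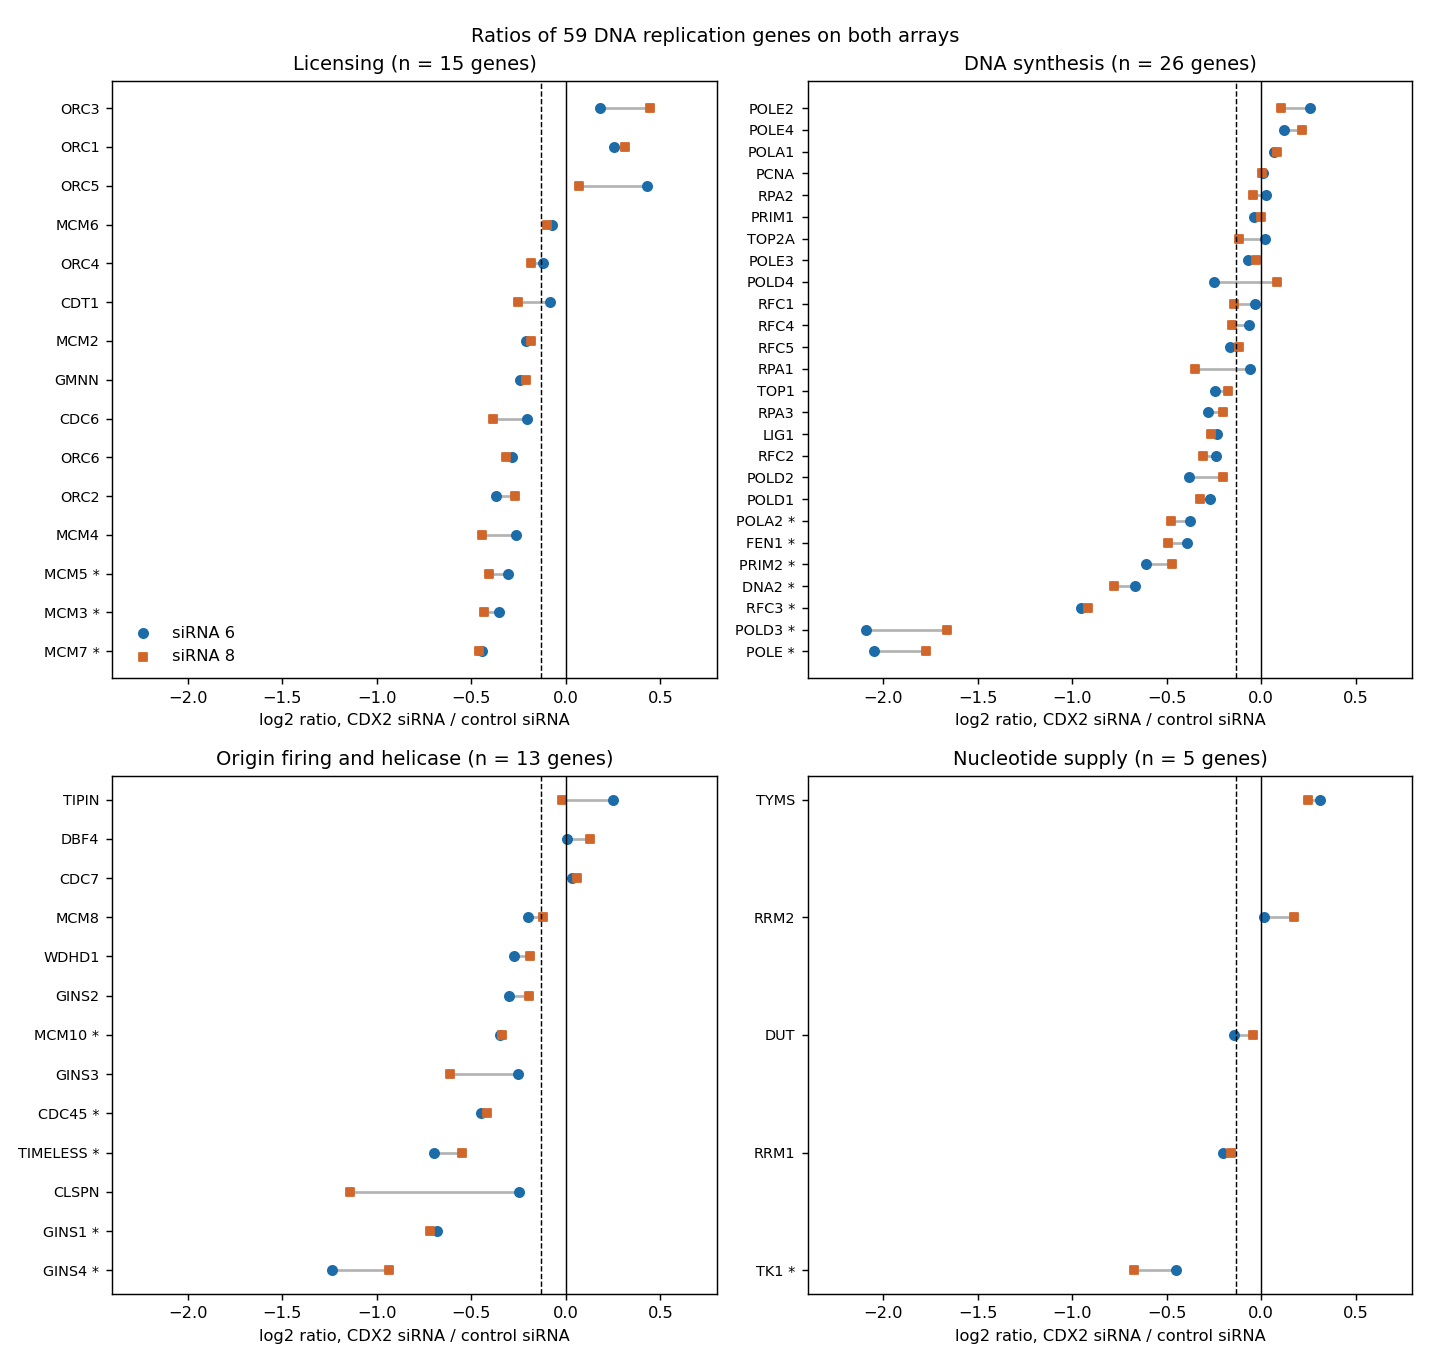
Log2 ratio of CDX2 siRNA over control (x axis) for each of the 59 replication genes, with siRNA 6 as circles and siRNA 8 as squares, joined by a grey line, in 4 panels by role. Asterisks mark the 16 genes with a limma adjusted p under 0.05, and the dashed line is the median of all genes, -0.13; most genes lie between -0.5 and 0.3, and POLE and POLD3 lie to the left of the rest.

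The promoters of these genes were read for motifs, since the members share a phase of transcription and CDX2 was the factor removed. RefSeq promoters (GRCh38.p14, 250 bases before to 50 after the first listed start) were matched to 52 of the 59 genes; MCM4, MCM5, GINS4, POLD3, RPA2, RPA3 and DNA2 had none. The E2F motif was searched as TTTCGCGC, TTTGGCGC, TTTCCCGC or TTTGCCGC, and the CDX2 motif as CAATAAA or CCATAAA, on both strands, where matches may overlap. An E2F match was in 21 of the 52 promoters (40.4%), against 5.43% of the promoters of 10390 genes tested and 3.33% of all 27305. A CDX2 match was in 1 of the 52 (1.92%), that of PRIM2, against 3.61% of the genes tested and 6.57% of all. When every listed start of a gene was read, 25 of the 52 held an E2F match (48.1%), against 6.61% of the genes tested, and the CDX2 count was again 1. Among the 12 matched genes that fell, 6 held an E2F match, and among the 40 that did not pass, 15 did. With every listed start these counts were 6 and 19. The promoters compared were not matched for base composition, and the E2F strings hold more G and C than the CDX2 strings. What part of either difference comes from base composition was not tested. A match is a string of letters in a window and not evidence of binding.

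**Figure D3:**
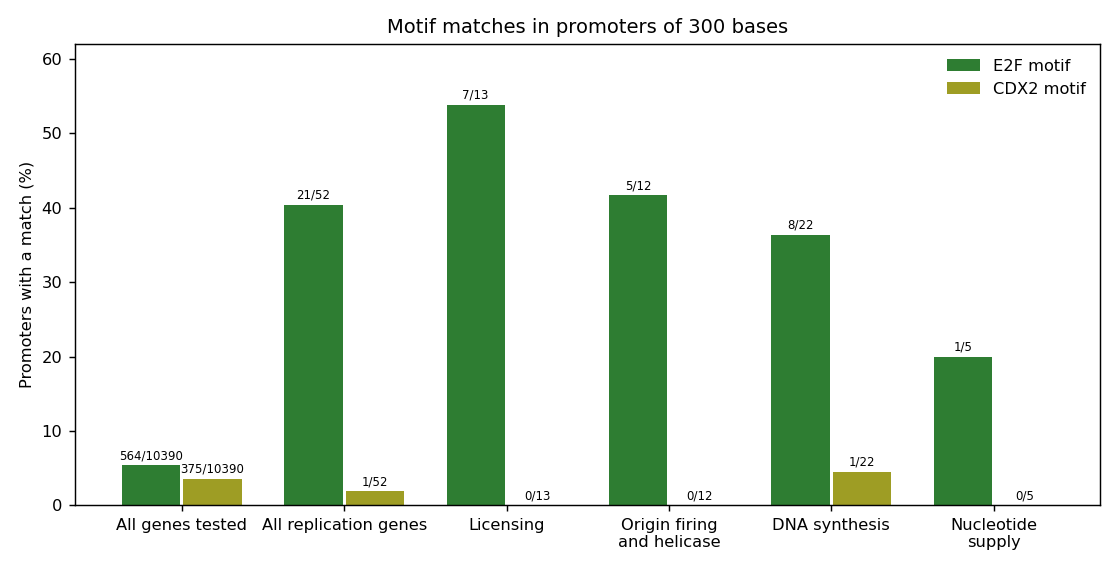
Share of promoters of 300 bases with at least 1 match (y axis, percent, bars from 0) for the E2F and the CDX2 motif, among all genes tested, all matched replication genes and each role; the numbers over the bars are promoters with a match over promoters read. E2F bars run from 20.0% in nucleotide supply to 53.8% in licensing, against 5.43% of genes tested.

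The promoters of the genes that fell most and held a match are printed below, since they show how close to the start the letters lie. Each is given 5′ to 3′ along the gene, with the matched letters in capitals.
POLE (chr12:132687293-132687592, minus strand): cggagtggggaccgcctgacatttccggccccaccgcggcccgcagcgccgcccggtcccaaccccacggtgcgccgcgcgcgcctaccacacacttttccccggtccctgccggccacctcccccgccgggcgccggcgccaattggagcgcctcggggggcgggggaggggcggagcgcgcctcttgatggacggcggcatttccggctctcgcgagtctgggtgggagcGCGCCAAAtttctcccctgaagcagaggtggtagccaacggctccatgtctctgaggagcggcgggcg
RFC3 (chr13:33817899-33818198, plus strand): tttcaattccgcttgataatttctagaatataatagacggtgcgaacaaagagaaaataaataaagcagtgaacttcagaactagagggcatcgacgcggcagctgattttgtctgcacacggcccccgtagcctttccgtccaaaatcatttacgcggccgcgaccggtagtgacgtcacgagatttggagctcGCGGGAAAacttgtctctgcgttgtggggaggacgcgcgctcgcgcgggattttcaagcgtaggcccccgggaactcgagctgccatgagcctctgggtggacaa
GINS1 (chr20:25407423-25407722, plus strand): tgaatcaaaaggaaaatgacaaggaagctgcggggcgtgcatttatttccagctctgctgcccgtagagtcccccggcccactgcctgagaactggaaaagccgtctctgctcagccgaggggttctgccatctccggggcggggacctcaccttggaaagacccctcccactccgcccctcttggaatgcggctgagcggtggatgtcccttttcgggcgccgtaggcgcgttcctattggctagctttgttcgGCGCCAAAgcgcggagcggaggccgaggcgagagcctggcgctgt
PRIM2 (chr6:57314555-57314854, plus strand): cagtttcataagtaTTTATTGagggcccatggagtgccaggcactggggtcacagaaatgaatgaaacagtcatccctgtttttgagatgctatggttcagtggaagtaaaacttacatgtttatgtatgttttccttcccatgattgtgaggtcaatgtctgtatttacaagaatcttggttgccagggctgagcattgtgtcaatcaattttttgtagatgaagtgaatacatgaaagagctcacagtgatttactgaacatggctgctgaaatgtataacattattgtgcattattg
MCM7 (chr7:100101348-100101647, minus strand): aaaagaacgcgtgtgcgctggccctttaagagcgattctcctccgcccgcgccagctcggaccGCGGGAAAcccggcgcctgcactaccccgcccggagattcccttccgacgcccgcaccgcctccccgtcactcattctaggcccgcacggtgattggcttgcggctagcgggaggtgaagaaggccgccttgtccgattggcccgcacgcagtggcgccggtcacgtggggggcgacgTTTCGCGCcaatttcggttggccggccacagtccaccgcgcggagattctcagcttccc
POLA2 (chr11:65261712-65262011, plus strand): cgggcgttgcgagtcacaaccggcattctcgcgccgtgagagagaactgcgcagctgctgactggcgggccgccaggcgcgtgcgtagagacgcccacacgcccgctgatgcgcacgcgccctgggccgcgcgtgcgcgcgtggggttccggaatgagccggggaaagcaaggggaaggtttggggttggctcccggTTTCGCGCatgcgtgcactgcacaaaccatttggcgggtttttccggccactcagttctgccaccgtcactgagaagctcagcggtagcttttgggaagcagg
In POLE the E2F letters begin 18 bases before the start, and in MCM7, which holds a pair of them, the nearer begins 9 bases before it. RFC3 and POLA2 have theirs 55 and 53 bases upstream, and GINS1 has its match 5 bases past the start. PRIM2 holds the CDX2 letters 236 bases upstream and no E2F letters.

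Among licensing genes, 3 of the 6 subunits of the MCM2-7 helicase fell, while the other 3 and the 6 genes of the origin recognition complex did not pass, and with centred arrays no MCM2-7 subunit passed. The licensing median was a log2 ratio of -0.23, and -0.10 with the arrays centred. By limma 3 of 15 genes (20.0%) were lower and 0 higher, against 28.6% and 12.1% of all genes. At an unadjusted p 7 were lower and 2 higher, against 35.8% and 15.1%. With centred arrays 0 were lower and 2 (13.3%), ORC1 and ORC3, higher by adjusted p, against 22.7% and 16.5% of all genes. All 15 licensing genes lay within 0.5 of 0, from -0.45 for MCM7 to 0.31 for ORC3, and none was 1.5-fold changed on both arrays.

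All 6 subunits of MCM2-7, the ring-shaped helicase that is loaded at origins, had ratios below 0 on both arrays, although MCM6 turned to 0.042 (log2) with centred arrays. Of all genes, 56.6% were below 0 on both. MCM7, whose promoter with 2 E2F matches is printed above, stood at 73.5% of control with siRNA 6 and 72.6% with siRNA 8 (log2 -0.45 ± 0.0124, SD, n = 2; limma adjusted p = 0.0220). MCM3 stood at 78.3% and 74.1% (-0.39 ± 0.0563, adjusted p = 0.0335 in limma). MCM5 was at 80.8% and 75.4% (-0.36 ± 0.0695, adjusted p = 0.0440 in limma). The arrays lay close together for each of these 3, and each was measured by 1 feature. MCM4, at 83.1% and 73.5%, had nearly the mean of MCM5 but a wider gap between arrays and did not pass (adjusted p = 0.0540 in limma). MCM2 stood at 86.4% and 87.8%, and MCM6 at 95.0% and 93.5%, the value nearest to control among the 6.

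The loading factors lay between the median of all genes and the MCM subunits that fell. CDC6, the ATPase that joins the origin recognition complex to load the helicase, stood at 86.6% and 76.6% of control (adjusted p = 0.0823 in limma). CDT1, which brings MCM2-7 to the origin, stood at 94.2% and 83.9%, and its inhibitor GMNN (geminin) at 84.4% and 86.4%. None of the 3 passed, and all were below control on both arrays, as were 56.6% of all genes.

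The origin recognition complex, which marks origins on the DNA, held the highest licensing values. ORC3 stood at 113% of control with siRNA 6 and 136% with siRNA 8 (adjusted p = 0.0941 in limma), and ORC1 at 119% and 124% (adjusted p = 0.0713 in limma). With centred arrays the limma adjusted p of ORC3 was 0.0435 and that of ORC1 was 0.0294. ORC5 stood at 135% and 105%, the widest gap of the complex, which came from its feature of a second accession, at log2 0.70 with siRNA 6 and -0.049 with siRNA 8. ORC2 was at 77.4% and 83.1%, ORC4 at 92.0% and 87.9%, and ORC6 at 82.1% and 80.2%. The ORC6 mean joins a feature at -0.91 with a pair at -0.060 and 0.062 (log2, mean of both arrays). None of the 6 passed without centring.

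Origin firing and helicase genes had a median log2 ratio of -0.34 (-0.22 with centred arrays and -0.20 with the feature nearest 0 of each gene), and 5 of 13 (38.5%) fell while 0 rose by limma, against 28.6% and 12.1% of all genes. With centred arrays 3 (23.1%) fell and 0 rose, against 22.7% and 16.5% of all genes in that setting. At an unadjusted p, without centring, 7 were lower and 0 higher, against 35.8% and 15.1% of all genes. GINS, the complex of 4 subunits that locks CDC45 to the helicase, was below control for every subunit on both arrays. Of all genes, 56.6% were below control on both. GINS4 stood at 42.4% of control with siRNA 6 and 52.3% with siRNA 8 (log2 -1.09 ± 0.213, SD, n = 2; limma adjusted p = 0.00498). Its 2 features were both low, at -1.24 and -0.93 (log2, mean of both arrays). GINS1 stood at 62.4% and 60.6% (log2 -0.70 ± 0.0299; limma adjusted p = 0.00726), on 1 feature. GINS3 was at 83.9% and 65.3% (adjusted p = 0.0620 in limma), and GINS2 at 81.1% and 87.5%. The pair of subunits that fell thus lay below the other pair, and for GINS3 siRNA 8 was the lower array. The 2 features of GINS3 lay at -0.36 and -0.15 with siRNA 6 and at -0.99 and -0.24 with siRNA 8 (log2). The gap between its arrays was therefore mainly on 1 feature.

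The partners of the helicase fell less than GINS4. CDC45, which together with GINS and MCM2-7 forms the active helicase, stood at 73.1% and 74.9% of control (log2 -0.43 ± 0.0236; limma adjusted p = 0.0245). MCM10, which helps to activate it, stood at 78.5% and 79.2% (-0.34 ± 0.00926; adjusted p = 0.0440 in limma), and its 2 features lay at -0.33 and -0.36. Neither passed after centring (limma adjusted p = 0.0560 for CDC45 and 0.118 for MCM10). MCM8, a helicase of the same family with a known role in recombination, stood at 87.0% and 91.8%.

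The kinase that fires origins stayed near control. CDC7, its catalytic subunit, stood at 102% and 104%. DBF4, its activator, was measured by 11 features of 1 accession, and 10 of them lay between 0.094 and 0.22 with siRNA 6 and between 0.19 and 0.30 with siRNA 8 (log2). The remaining feature stood at -1.64 and -1.07, and with it the DBF4 mean was 0.0068 and 0.13. Without it the mean was 0.17 with siRNA 6 and 0.25 with siRNA 8, with an SD over features of 0.0446 and 0.0404. Features of 1 accession may repeat the same probe, which was not read here. The SD is therefore a spread of spots and not of independent measurements, and the count of 10 does not say which value is right. In the plot of single features this spot lies far below the other 10 on both arrays.

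**Figure D4:**
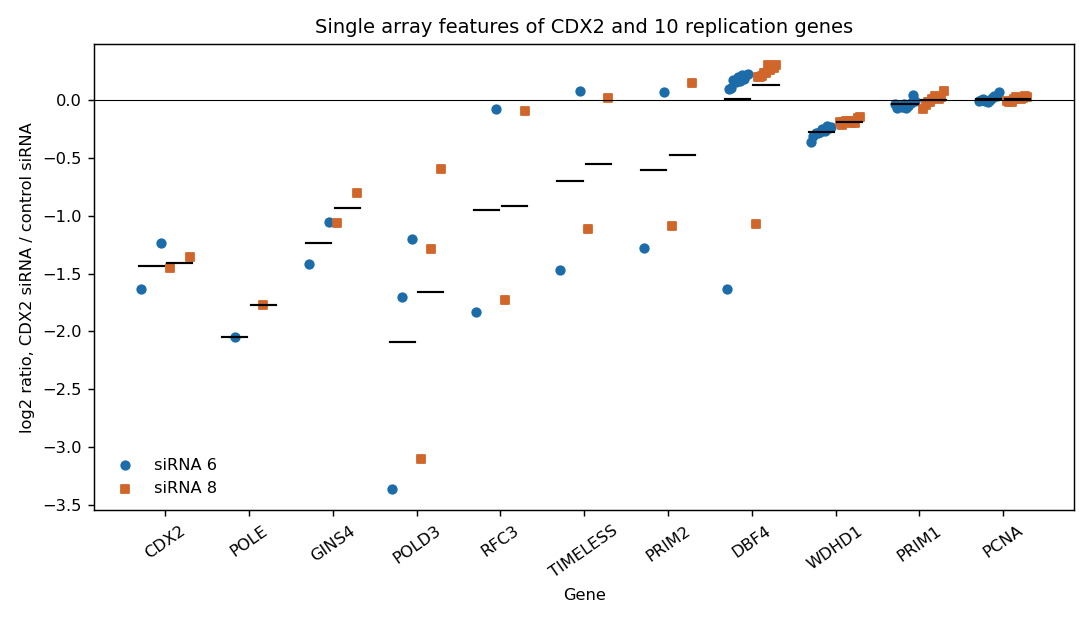
Log2 ratio of CDX2 siRNA over control (y axis) for each single feature of CDX2 and 10 replication genes (x axis), siRNA 6 as circles and siRNA 8 as squares, with a black bar at the mean per array. WDHD1, PRIM1 and PCNA have 10 features each that lie close together, while RFC3, TIMELESS, PRIM2 and DBF4 each have features near 0 and a feature at or below -1.07.

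Fork protection genes differed in how well their data held together. CLSPN (claspin), an adaptor that carries checkpoint signals at the fork, stood at 84.1% of control with siRNA 6 and 45.3% with siRNA 8 (log2 -0.70 ± 0.631, SD, n = 2). Its mean was close to that of GINS1, but the gap between the siRNAs was wide and it did not pass (adjusted p = 0.0936 in limma). TIMELESS, which with TIPIN couples helicase and polymerase, stood at 61.6% and 68.2% and passed (limma adjusted p = 0.0119). Its 2 features of 1 accession differed in sign, at 0.076 and -1.47 with siRNA 6 and at 0.014 and -1.12 with siRNA 8 (log2). With the feature nearest 0 it did not pass (limma adjusted p = 0.741). TIPIN stood at 119% with siRNA 6 and 98.5% with siRNA 8, with opposite signs. WDHD1, a scaffold between helicase and polymerase alpha, had 10 features with a ratio, which lay between -0.36 and -0.23 with siRNA 6 and between -0.22 and -0.15 with siRNA 8. Its mean was 82.6% and 87.8% of control (adjusted p = 0.114 in limma).

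Among DNA synthesis genes, POLE of polymerase epsilon and POLD3 of polymerase delta fell by the largest amounts, while no other subunit of either polymerase passed. The median log2 ratio of the 26 genes was -0.21 (-0.079 with centred arrays). By limma 7 (26.9%) fell and 0 rose, against 28.6% and 12.1% of all genes. At an unadjusted p 11 were lower and 0 higher, against 35.8% and 15.1%. With centred arrays 5 (19.2%) fell and 0 rose by adjusted p, against 22.7% and 16.5% of all genes. POLE, the catalytic subunit of the leading strand polymerase epsilon, stood at 24.2% of control with siRNA 6 and 29.2% with siRNA 8 (log2 -1.91 ± 0.194, SD, n = 2; limma adjusted p = 0.00155). This 3.76-fold decrease rested on 1 of 2 features, the other being listed at exactly 0 on both arrays, and with that 0 kept the log2 ratio of POLE was -0.96. The other epsilon subunits did not pass, with POLE2 at 120% and 107%, POLE3 at 95.4% and 98.0% and POLE4 at 109% and 116%. POLE was thus the single epsilon subunit that fell.

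Polymerase delta, which copies the lagging strand, showed a similar range between subunits. POLD3, an accessory subunit, stood at 23.5% of control with siRNA 6 and 31.6% with siRNA 8 (log2 -1.88 ± 0.301, SD, n = 2; limma adjusted p = 0.00226). All 3 of its features, of 2 accessions, were below 0 on both arrays, at -3.23, -1.49 and -0.90 (log2, mean of both arrays). POLD1, the catalytic subunit, stood at 82.9% and 80.0% (adjusted p = 0.0638 in limma), POLD2 at 76.8% and 86.8%, and POLD4 at 84.0% and 106%. POLD3 lay below every other delta subunit on both arrays.

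In the polymerase alpha-primase complex, which lays down the primers, 1 subunit of each pair was low. POLA2, the accessory subunit of the polymerase, stood at 77.0% and 71.9% of control (log2 -0.43 ± 0.0698; limma adjusted p = 0.0281), while POLA1, its catalytic subunit, stood at 105% and 106%. POLA2 did not pass with centred arrays (limma adjusted p = 0.0683). PRIM2, the large primase subunit and the promoter with CDX2 letters, stood at 65.6% and 72.0% (limma adjusted p = 0.0167). Its 2 features of 1 accession lay at 0.11 and -1.19, so that only 1 of them was low. PRIM1, the catalytic primase subunit, was measured by 10 features between -0.071 and 0.042 with siRNA 6 and between -0.084 and 0.078 with siRNA 8, a mean of 97.4% and 100.0% of control.

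PCNA, the sliding clamp and a common marker of dividing cells, was the member closest to control. The 10 features of PCNA, which may repeat the same probe, lay between -0.021 and 0.064 with siRNA 6 and between -0.019 and 0.031 with siRNA 8. The SD over these spots was 0.0259 and 0.0186 (log2). Its mean log2 ratio was 0.0077, at percentile 65.7 of all genes. In RFC, the complex that loads the clamp, all 5 subunits were below 0 on both arrays, but only RFC3 passed. Of all genes, 56.6% were below 0 on both, and with centred arrays RFC1 turned to 0.039 and RFC4 to 0.018 (log2). RFC3 stood at 51.5% and 53.0% of control (log2 -0.94 ± 0.0279, SD, n = 2; limma adjusted p = 0.00364). Its feature annotated to NM_002915 lay at -0.089 and that annotated to NM_181558 at -1.78, 2 RefSeq transcripts of the gene. RFC2 stood at 84.6% and 80.9%, RFC5 at 89.1% and 92.2%, RFC4 at 95.6% and 89.9% and RFC1 at 97.8% and 90.5%. RPA, the complex that coats single-stranded DNA, did not pass for any subunit, with RPA1 at 96.0% and 78.6%, RPA2 at 102% and 96.9% and RPA3 at 82.2% and 87.0%.

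Enzymes that finish the lagging strand were below control on both arrays for each of 3 genes, as were 56.6% of all genes. DNA2, a nuclease and helicase that trims long flaps, stood at 62.9% with siRNA 6 and 58.2% with siRNA 8 (log2 -0.72 ± 0.0793, SD, n = 2; limma adjusted p = 0.00746). FEN1, the flap endonuclease, stood at 76.2% and 71.0% (log2 -0.44 ± 0.0718; limma adjusted p = 0.0257), with both of its features low, at -0.47 and -0.41, and it did not pass with centred arrays (limma adjusted p = 0.0612). LIG1, the ligase that seals the nicks, stood at 85.0% and 83.1% (adjusted p = 0.0915 in limma). The topoisomerases, which remove the twist ahead of the fork, did not pass, with TOP1 at 84.4% and 88.6% and TOP2A at 101% and 92.2%.

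The 5 nucleotide supply genes did not move together. Their median log2 ratio was -0.093, which turned to 0.034 with centred arrays, and 1 of 5 fell and 0 rose by limma, against 28.6% and 12.1% of all genes, with 1 lower and 1 higher at an unadjusted p, against 35.8% and 15.1%. TK1, the thymidine kinase of dividing cells, stood at 73.0% of control with siRNA 6 and 62.6% with siRNA 8 (log2 -0.56 ± 0.157, SD, n = 2; limma adjusted p = 0.0196). TYMS, the thymidylate synthase that makes the same product by the other route, stood at 124% and 119% (adjusted p = 0.0734 in limma, and 0.0317 with centred arrays). Both arrays thus placed TK1 below and TYMS above control, on 1 feature each. The ribonucleotide reductase subunits RRM1 and RRM2 stood at 87.0% and 89.6% and at 101% and 113%, and DUT, which clears dUTP, at 90.5% and 97.1%.

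How far a member's value depends on which feature was read was set out for all genes with several. Of the 59, 36 had 1 feature with ratios on both arrays and 23 had more, 4 of them with features of 2 accessions. In 5 genes, DBF4, TIMELESS, PRIM2, POLD3 and RFC3, features lay 1 or more apart (log2, mean of both arrays), and all but DBF4 were among the 16 that fell. Of the 16, 9 had 1 feature. When each gene of the table was represented by its feature nearest 0, a setting chosen after the values were seen, 11 replication genes fell (18.6% of all genes were called lower), and TIMELESS, PRIM2, RFC3, MCM5 and MCM10 no longer passed. MCM5 has 1 feature, and its limma adjusted p in that fit was 0.0579. Every feature with a ratio on both arrays was at least 1.5-fold lower on both in 5 genes, POLE, POLD3, GINS1, GINS4 and DNA2. For POLE, GINS1 and DNA2 that was 1 feature each. In 10 genes at least 1 feature was that low, while on no feature of a member was the rise 1.5-fold or more on both. By gene mean, 18.4% of all genes were at least 1.5-fold lower on both arrays and 7.8% higher. Shares by single feature were not computed for all genes.

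Genes that act beside the members were also read, from lists drawn up with earlier results of these data known. Of 26 further fork genes, 8 (30.8%) fell and 0 rose by limma, against 28.6% and 12.1% of all genes (11 lower and 0 higher at an unadjusted p, against 35.8% and 15.1%), with a median log2 ratio of -0.24. With centred arrays 5 (19.2%) fell and 1 (3.85%), MMS22L, rose, against 22.7% and 16.5% of all genes in that setting. MMS22L (limma adjusted p = 0.0451 with centred arrays) was singled out after its values were seen. The 4 features of MMS22L ran from -0.57 to 1.27 (log2, mean of both arrays, not centred). CINP, which binds CDK2, stood at 27.9% and 43.9% of control, MCM9, the partner of MCM8, at 40.6% and 47.9%, and TONSL, a factor of stalled forks, at 42.2% and 48.1%, with its 2 features at -1.97 and -0.33 (log2). Of 13 further nucleotide supply genes, 2 fell (15.4%) and 1 rose (7.69%), against 28.6% and 12.1% of all genes, with a median of -0.21. With centred arrays neither fall passed (limma adjusted p = 0.0621 for CTPS2 and 0.0588 for SHMT1). SAMHD1, which breaks down dNTPs, stood at 364% and 466%, CTPS2, a CTP synthase, at 74.1% and 75.3%, and SHMT1, a folate enzyme, at 69.3% and 76.9% although its 3 features ran from -1.30 to 0.20 (log2). Of 14 G1/S genes, 2 fell and 2 rose (14.3% each, against 28.6% and 12.1% of all genes), with a median of -0.14. The cyclin CCNE2 stood at 28.2% and 29.6%, the repressor E2F7 at 67.4% and 58.0%, its relative E2F8 at 331% and 322%, and UNG, which removes uracil from DNA, at 160% and 142%.

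Ratios carry no level, so the line's identity could not be read from them. Of 10 neuroendocrine and epithelial markers, 7 had ratios, of which CHGA and EPCAM fell and ENO2 and KRT8 rose by limma, and SYP, INSM1 and CDH1 were listed at 0 on both arrays. The 2 features of KRT8 lay at -0.020 and 2.68 (log2), and CHGA did not pass with centred arrays (limma adjusted p = 0.0848). EPCAM stood at 22.2% and 25.4% of control and ENO2 at 177% and 179%. Their part in the replication genes' values was not tested. In bulk RNA, fewer cells in S phase and less of a transcript in each cell cannot be told apart.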

How the data were processed

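The authors deposited a log10 ratio, Cy5 over Cy3, for each feature of 2 two-colour Agilent 44K arrays, computed with Agilent Feature Extraction 9.5.3 per the submitters' processing notes. The base of the log, and the background and dye correction, are not given in the sources used here; base 10 was read from that tool's usual output. The ratios were converted to log2, and features at exactly 0 on either array were left out as not measured, a reading no source states. Of 45015 features, 31332 were annotated to 1 gene, and features were averaged per gene. No intensities were used here, so dim or saturated features were kept and the number of arrays limits the precision.

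The test was limma, version 3.58.1, under R 4.3.3 (intercept-only fit to both arrays, eBayes, Benjamini-Hochberg over 12842 genes). It had 1 residual and 2.87 prior degrees of freedom. The fit was checked on simulated data in which few genes were changed and no dye bias was shared by both arrays. That check does not cover such a bias, or data in which many genes change. Summaries used Python 3.11.15 with pandas 2.3.3. The members, roles and lists were chosen with earlier results of these data known. Named were CDX2, every member past the threshold or 1.5-fold on both arrays, those with features 1 or more apart, the highest and lowest other member of each role, and up to 3 genes per direction of each further list; the remaining members are given with their values for completeness. Promoters printed were the 6 with a match whose mean log2 ratio was lowest among members that fell.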

Additional observations from a re-analysis of the deposited data

How the results depend on the processing

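No paired analysis was possible because the 2 arrays are 1 group of ratios and share no replicate number with another. The median, RefSeq mRNA and robust prior settings each gave 16 replication genes lower and 0 higher. The lower count was 9 with centred arrays (and 3 higher), 0 with exact zeros kept and 6 by 1.5-fold on both arrays. With zeros kept, limma called 0 of 18334 genes. At an unadjusted p under 0.05, 26 replication genes were lower and 3 higher (18.5% and 10.0% of all genes in that fit). With zeros left out these counts were also 26 and 3, against 35.8% and 15.1% of all genes. The limma adjusted p of CDX2 with zeros kept was 0.0676 at a log2 ratio of -1.42 (0.00171 to 0.00317 in its other alternatives). In that fit 5002 genes at 0 on both arrays, without spread, enter the variance prior and lower the shares of all genes. Centring moved the median log2 ratio to -0.10 for replication genes, -0.10 for licensing, -0.22 for firing and helicase, -0.079 for synthesis and 0.034 for nucleotide supply, since it adds the shift of all genes. With the feature nearest 0, chosen after seeing the data, these medians, in the same order, were -0.18, -0.20, -0.20, -0.13 and 0.0090, TIMELESS stood at 0.045 and PRIM2 at 0.11; other features of these genes were then left out. With 1 array left out, which allows no test, the medians ran from -0.24 to -0.20, from -0.25 to -0.21, from -0.34 to -0.28, from -0.24 to -0.19 and from -0.14 to -0.042, CDX2 from -1.44 to -1.41, and TIPIN from -0.021 (siRNA 8 alone) to 0.25 (siRNA 6 alone).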
